A study of Saccharomyces cerevisiae with 24 samples.

Results

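The 10 genes described here encode chaperones of the endoplasmic reticulum (ER), enzymes that form or rearrange disulfide bonds there, and the sensor and transcription factor of the unfolded protein response in budding yeast. They were chosen by systematic name, as KAR2 (YJL034W), LHS1 (YKL073W), SCJ1 (YMR214W), JEM1 (YJL073W), PDI1 (YCL043C), EUG1 (YDR518W), ERO1 (YML130C), CNE1 (YAL058W), IRE1 (YHR079C) and HAC1 (YFL031W). All 10 were among the 5193 genes in the files, and all 10 were among the 5142 genes that passed the filter on low counts. The 24 RNA-seq libraries came from wild-type Saccharomyces cerevisiae of the W303 background (strain W303-1B, with the ade2, trp1, can1, leu2, his3 and ura3 alleles in every library), grown in YPD rich medium without any chemical treatment and pipetted by an OT-2 liquid handling robot at 50, 130, 210 or 290 µL/s. Each speed was applied to 2 biological replicates (B2 and B1), each of which was a single culture of the same clone, with 3 technical replicates per culture (T3, T2 and T1). Every speed therefore had 6 libraries, every biological replicate 12 and every technical replicate number 8.

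Proteins that enter the ER are folded by Kar2, the yeast BiP, an ATP-driven chaperone whose cycle is set by J-domain partners and by nucleotide exchange factors. Disulfide bonds are introduced by Pdi1, which passes its electrons to the oxidase Ero1. When unfolded proteins accumulate, the membrane sensor Ire1 removes an intron from the cytoplasmic HAC1 mRNA, and the Hac1 protein made from the spliced message activates KAR2, PDI1 and many other ER genes. In yeast this step acts mainly on splicing and translation of HAC1, so the total amount of HAC1 mRNA is not by itself a readout of the pathway's activity. The values here are sums over each gene, and they do not separate spliced from unspliced HAC1 mRNA.

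The libraries held between 11555761 and 15464428 expected counts (median 13123655.5). Technical replicates of the same speed and culture differed by more than counting noise in all 24 pairs of libraries (chi-square over its degrees of freedom, 9.1 to 133). The library of 50 µL/s B1T3 stood apart. It held the highest or the lowest normalised count of all 24 libraries for 6 of the 10 genes (highest for KAR2, SCJ1, JEM1 and ERO1, lowest for PDI1 and EUG1), as it did for 38.3% of all genes tested. Since there were only 2 cultures, the p-values below measure the spread between these libraries.

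The 10 genes covered a wide range of transcript levels, given here as transcripts per 1000000 (TPM), which are corrected for gene length. PDI1 was the most abundant, with 1105 to 1331 TPM over the 24 libraries and a median of 1203. HAC1 followed with 640 to 847 TPM (median 709), and KAR2 with 588 to 754 TPM (median 631). The range of PDI1 lay wholly above that of HAC1, whereas the ranges of HAC1 and KAR2 overlapped, so that the order of these neighbours was not separated. The medians of PDI1, HAC1 and KAR2 lay at the percentiles 97.6, 96.0 and 95.6 of all genes in the files.

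A middle tier held ERO1 (110 to 177 TPM, median 129), LHS1 (97.6 to 112 TPM, median 104), EUG1 (76.9 to 110 TPM, median 98.9) and SCJ1 (66.1 to 92.5 TPM, median 75.6). ERO1, LHS1 and EUG1 each overlapped the next gene below, and all 4 lay below the whole range of KAR2. JEM1 was separate from SCJ1 above it and from IRE1 below it, at 40.9 to 53.0 TPM (median 44.5). The lowest levels were those of IRE1 (19.8 to 23.9 TPM, median 22.4) and CNE1 (19.4 to 24.1 TPM, median 21.9), whose ranges overlapped. The median TPM of PDI1 was 55.0 times that of CNE1.

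**Figure D1:**
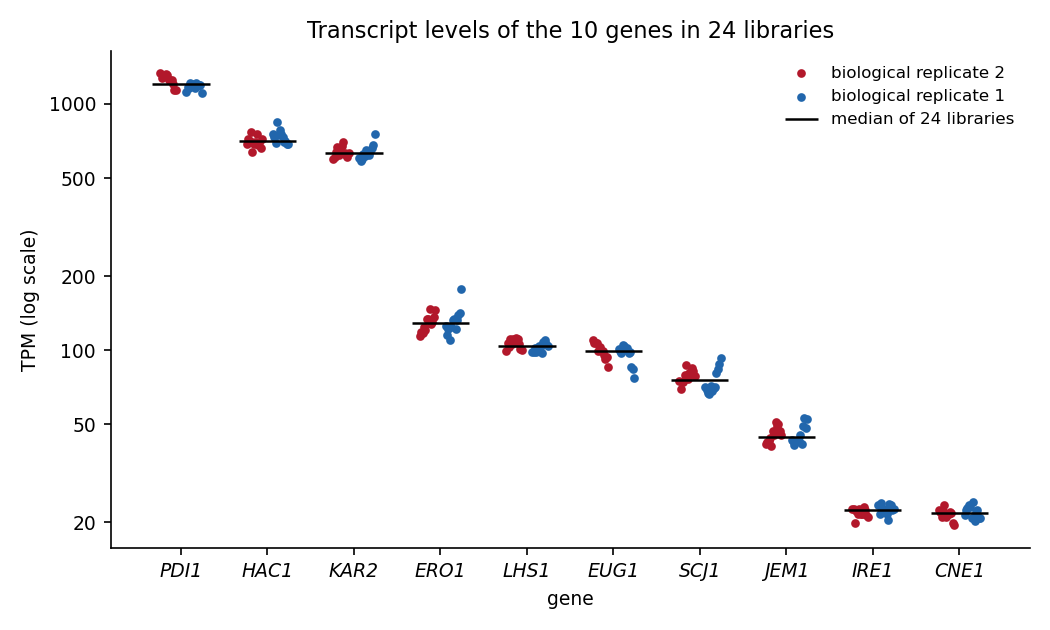
TPM (log axis) of the 10 genes in order of their median, with 1 point for each library, biological replicate 2 left of biological replicate 1, and a line at the median of 24 libraries. PDI1, HAC1 and KAR2 have medians of 631 TPM or more, whereas IRE1 and CNE1 lie between 19.4 and 24.1 TPM.

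The gene model used for HAC1 in these files was 693 bases long, whereas the coding sequence in the RefSeq annotation of strain S288C (build R64) has 717 bases in 2 parts, of 661 and 56 bases. PDI1 had the same length in both, at 1569 bases. The HAC1 level is therefore relative to a model that differs from the annotated spliced coding sequence. Whether another model would change its place beside KAR2 in the order of TPM values was not tested.

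Comparison of the technical replicates gave the most calls among the 10 genes. For this comparison, counts were normalised to counts per 1000000 (CPM) with scaling factors from the trimmed mean of M-values (TMM), and edgeR's quasi-likelihood test was fitted with terms for speed, biological replicate and technical replicate. A gene was called at a Benjamini-Hochberg false discovery rate (FDR) below 0.01 over all 5142 genes. Between technical replicates 3 and 1, 6 of the 10 genes were called, against 49.3% of all genes tested. SCJ1, JEM1 and ERO1 rose (3 of 10, against 26.2% of all genes), and EUG1, HAC1 and PDI1 fell (3 of 10, against 23.1% of all genes). In bulk RNA, a change in the share of cells that express a gene cannot be told apart from a change of RNA per cell. The median log2 fold change was −0.0094 over the 10 genes and 0.012 over all genes, while the median size of the change was 0.12 and 0.14.

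SCJ1 and JEM1, which encode J-domain partners of Kar2, rose. SCJ1, whose lumenal protein stimulates Kar2 in folding, had 85.8 to 100.2 CPM in technical replicate 3 (median 90.5), against 74.4 to 83.85 CPM in technical replicate 1 (median 77.1). These ranges did not overlap, and SCJ1 was higher in 8 of 8 pairs matched for speed and culture. Its log2 fold change was 0.21 (SE 0.039, FDR 6.29e-05). JEM1, whose membrane-bound J-domain protein also acts in nuclear fusion during mating, had 91.4 to 105 CPM in technical replicate 3 (median 98.2), against 84.1 to 91.0 CPM in technical replicate 1 (median 87.4). These ranges were also separate, with 8 of 8 pairs higher and a log2 fold change of 0.17 (SE 0.032, FDR 6.63e-05). Of 2 genes of other ER J-domain proteins, added here after their values were seen, ERJ5 fell (−0.17, FDR 0.000119) and SEC63 was not called (0.042, FDR 0.165).

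Kar2 itself and its exchange factor showed smaller differences that were not called. KAR2 had 1326 to 1602 CPM in technical replicate 3 (median 1359), against 1286 to 1474 CPM in technical replicate 1 (median 1322), and its log2 fold change was 0.048 (95% interval −0.014 to 0.11, FDR 0.174). LHS1, which encodes an HSP70-related nucleotide exchange factor for Kar2, had 284 to 312 CPM in technical replicate 3 (median 298), against 279 to 323 CPM in technical replicate 1 (median 291). The range of technical replicate 1 contained that of technical replicate 3, and the log2 fold change of LHS1 was 0.0099 (95% interval −0.043 to 0.063, FDR 0.758).

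The genes of disulfide bond formation moved in opposite directions. EUG1, which encodes a homologue of Pdi1, had 120.1 to 152 CPM in technical replicate 3 (median 139.8), against 156 to 178 CPM in technical replicate 1 (median 171). Every library of technical replicate 3 lay below every library of technical replicate 1, and the log2 fold change was −0.27 (SE 0.039, FDR 3.60e-06), the largest change in size among the 10 genes. ERO1 had 221 to 305 CPM in technical replicate 3 (median 238), against 198 to 222 CPM in technical replicate 1 (median 209.5). It was higher in 8 of 8 pairs, although the lowest value of technical replicate 3 overlapped the highest of technical replicate 1. The log2 fold change of ERO1 was 0.21 (SE 0.042, FDR 0.000167), and without the library of 50 µL/s B1T3 it was 0.16 (FDR 0.00011).

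PDI1 had 1745 to 1981 CPM in technical replicate 3 (median 1861), against 1783 to 2171 CPM in technical replicate 1 (median 2034). It was lower in 6 of 8 pairs, with a log2 fold change of −0.10 (SE 0.032, FDR 0.00839). This call did not hold in 11 of the 24 fits that left out 1 library (FDR up to 0.0228), nor without TMM scaling (FDR 0.118), nor with mean fragment length as a covariate (FDR 0.011), nor within biological replicate 1 (FDR 0.437). Mean fragment length itself was 180 to 191 bases in technical replicate 3 (median 185) and 180 to 188 bases in technical replicate 1 (median 186).

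In the unfolded protein response itself, HAC1 had 394 to 426 CPM in technical replicate 3 (median 401), against 410 to 514 CPM in technical replicate 1 (median 432). The libraries of technical replicate 3 lay close together and below their matched partner in 8 of 8 pairs, and the ranges overlapped. The log2 fold change of HAC1 was −0.13 (SE 0.035, FDR 0.00288), and it was not called without TMM scaling (FDR 0.0401). IRE1 had 76.3 to 84.9 CPM in technical replicate 3 (median 81.5), against 74.0 to 88.3 CPM in technical replicate 1 (median 84.1), with a log2 fold change of −0.029 (95% interval −0.085 to 0.028, FDR 0.375). CNE1, which encodes the yeast relative of the lectin chaperone calnexin, had 29.6 to 33.4 CPM in technical replicate 3 (median 32.2), against 32.6 to 37.0 CPM in technical replicate 1 (median 34.9). It was lower in 7 of 8 pairs but was not called, with a log2 fold change of −0.11 (SE 0.040, FDR 0.018). CNE1 was called when only the libraries of technical replicates 3 and 1 were fitted (FDR 0.0092). It was also called in 2 of the 24 fits that left out 1 library.

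**Figure D2:**
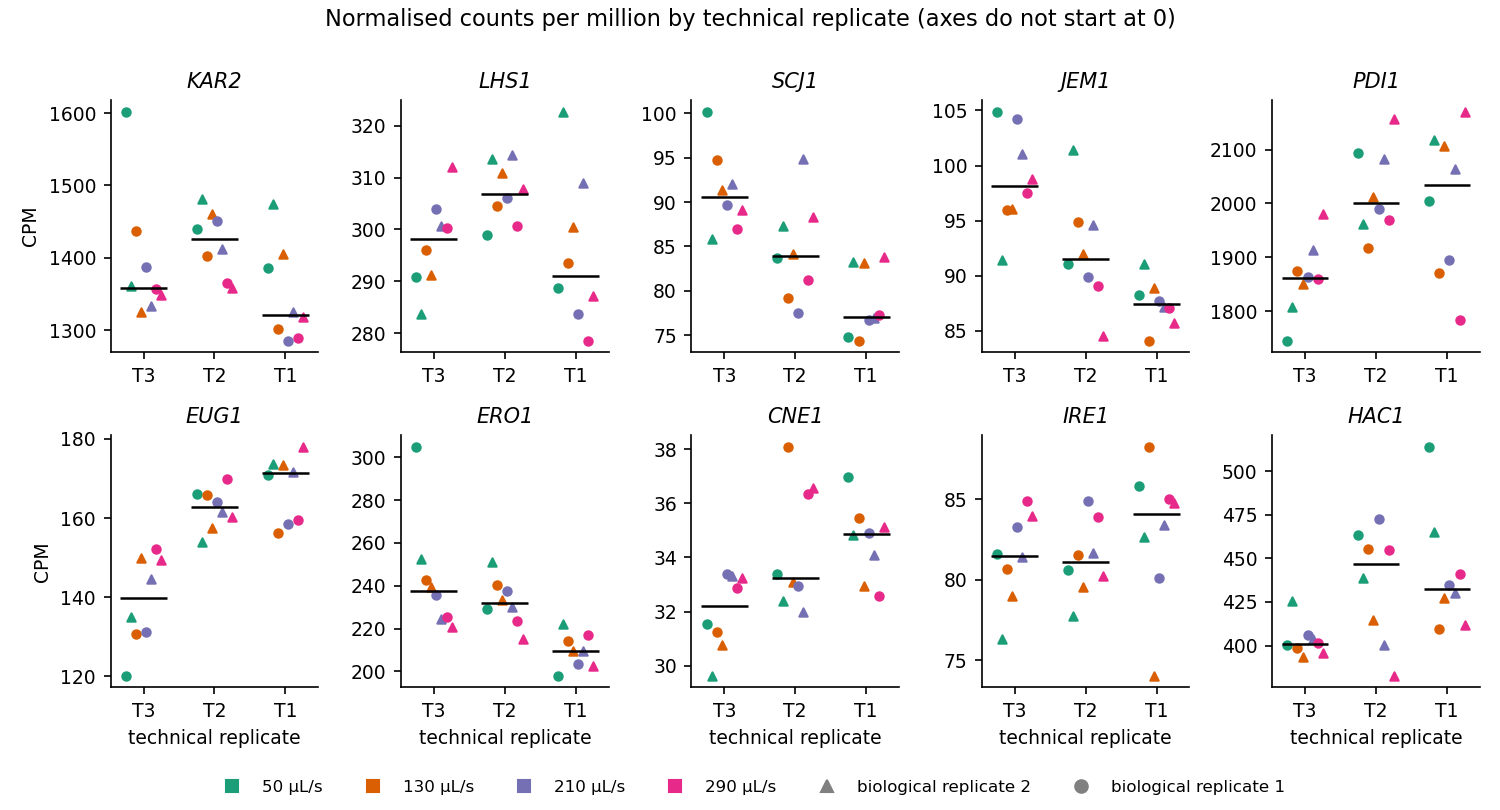
CPM of the 10 genes (vertical axes, not from 0) in technical replicates T3, T2 and T1, with 1 point for each of 8 libraries coloured by speed, triangles for biological replicate 2, circles for biological replicate 1, and lines at the medians. SCJ1 and JEM1 in T3 lie wholly above T1, EUG1 in T3 lies wholly below both T2 and T1, and the library of 50 µL/s B1T3 is the highest for KAR2 (1602 CPM) and ERO1 (305 CPM).

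A single direction in all 8 pairs was seen for SCJ1, JEM1, ERO1, EUG1 and HAC1 (5 of 10), against 42.4% of all genes, and the ranges of technical replicates 3 and 1 did not overlap for 3 of the 10 genes (SCJ1, JEM1 and EUG1), against 25.4% of all genes. The balance of directions depended on the scaling. Among all genes called, 53.2% were higher in technical replicate 3 with TMM scaling and 66.6% were higher with total counts alone. With total counts alone, 4 of the 10 genes were called, of which 3 (SCJ1, JEM1 and ERO1) were higher and 1 (EUG1) was lower. As a description of these 2 genes, which already differed in opposite directions, the ratio of EUG1 to SCJ1 in TPM was 0.831 to 1.21 in technical replicate 3 (median 1.09), 1.18 to 1.47 in technical replicate 2 (median 1.34) and 1.43 to 1.58 in technical replicate 1 (median 1.45). The ratio of PDI1 to ERO1 was 6.23 to 9.77 in technical replicate 3 (median 8.51) and 8.94 to 11.7 in technical replicate 1 (median 10.6), with overlapping ranges.

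Both cultures were then examined alone. Within biological replicate 2, PDI1, EUG1, ERO1 and HAC1 were among 2194 genes called between technical replicates 3 and 1, whereas within biological replicate 1 SCJ1, JEM1 and EUG1 were among 1435 called. EUG1 was called in both, and all 6 genes called over both cultures had the same sign in each. A test of the difference between the cultures called 0 of the 10 genes, against 1.26% of all genes. KAR2 had the smallest p of the 10 in this test. Its log2 fold change between technical replicates 3 and 1 was −0.039 within biological replicate 2 and 0.13 within biological replicate 1, a difference of −0.17 (SE 0.047, FDR 0.0543), which DESeq2 placed at FDR 0.00973.

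Technical replicates 2 and 1 differed less. None of the 10 genes was called (0 of 10, against 4.28% of all genes), and 5 had an unadjusted p below 0.05, against 25.5% of all genes. ERO1 came closest to the threshold, with 215 to 251 CPM in technical replicate 2 (median 232) against 198 to 222 CPM in technical replicate 1 (median 209.5), higher in 8 of 8 pairs and with a log2 fold change of 0.15 (SE 0.042, FDR 0.0253). Without the library of 50 µL/s B1T3, ERO1 was called (FDR 0.00197). KAR2 and SCJ1 were also higher in 8 of 8 pairs, with log2 fold changes of 0.077 (FDR 0.104) and 0.10 (FDR 0.101). A single direction in all 8 pairs was seen for 7.6% of all genes.

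Between technical replicates 3 and 2, EUG1 and PDI1 fell (2 of 10, against 38.5% of all genes called and 18.4% called lower). EUG1 had 120.1 to 152 CPM in technical replicate 3 and 154 to 169.8 CPM in technical replicate 2, without overlap (1 of the 10 genes, against 12.7% of all genes), and a log2 fold change of −0.23 (SE 0.039, FDR 5.99e-05). PDI1 was lower in 8 of 8 pairs, as was EUG1 (a single direction in all pairs was seen for 31.9% of all genes), with 1745 to 1981 CPM in technical replicate 3 against 1918 to 2157 CPM in technical replicate 2 and a log2 fold change of −0.12 (SE 0.032, FDR 0.00357). Its call was lost without TMM scaling (FDR 0.017) and within biological replicate 1 (FDR 0.0561). With total counts alone, SCJ1 and JEM1 were called higher and EUG1 lower (3 of 10), and HAC1 was called lower with EUG1 and PDI1 (3 of 10) with DESeq2 or with its size factors. JEM1 (0.099, FDR 0.013), HAC1 (−0.11, FDR 0.0125) and SCJ1 (0.11, FDR 0.0197) had log2 fold changes just outside the threshold. Of these, SCJ1 and HAC1 were called without the library of 210 µL/s B2T2, and SCJ1 and JEM1 without that of 50 µL/s B2T3, which brought the count to 4 of 10 in each case. Over the 24 fits that left out 1 library, HAC1 was called in 6, SCJ1 in 2 and JEM1 in 2, while 1780 to 2020 of all genes were called. Within biological replicate 1, SCJ1, EUG1 and HAC1 were called, beside 1155 of all genes.

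Other genes of the ER were examined in the same comparison of technical replicates 3 and 1. Only listed genes that were in the files were counted. They were 18 of 19 genes of glycan trimming and ER-associated degradation and 16 of 21 of translocation and signal peptide cleavage. Of the oligosaccharyltransferase subunits 6 of 9 were present, and of the cytosolic chaperones 13 of 18. The other lists were complete. Of 10 other ER folding factors, 1 rose and 4 fell (50% called, against 49.3% of all genes, median log2 fold change −0.067). SIL1, which encodes a second nucleotide exchange factor of Kar2, rose as SCJ1 and JEM1 did, with a log2 fold change of 0.22 (SE 0.030, FDR 1.20e-06), and it was also higher in technical replicate 2 than in technical replicate 1 (0.15, FDR 0.00224). CPR5, an ER prolyl isomerase gene, fell (−0.28, FDR 2.20e-07), as did MPD1, which encodes another member of the Pdi1 family (−0.19, FDR 5.09e-05). CPR5 had 202 to 249 CPM in technical replicate 3 and 266 to 314 CPM in technical replicate 1, without overlap.

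Of 18 genes of glycan trimming and ER-associated degradation, 2 rose and 8 fell (55.6% called, against the same 49.3%, median −0.087). With total counts alone 2 rose and 3 fell. SSM4, which encodes a ubiquitin ligase of the ER membrane also known as Doa10, rose by a log2 fold change of 0.18 (FDR 2.94e-06), while DFM1, a Derlin family gene (−0.18, FDR 5.18e-06), and CDC48, which encodes the ATPase that extracts degradation substrates (−0.15, FDR 0.000136), fell. Of 16 genes of ER translocation and signal peptide cleavage, 5 rose and 3 fell (50% called, median 0.043), whereas 8 rose and 2 fell with total counts alone (median 0.094). SRP68, a signal recognition particle subunit gene (0.17, FDR 1.68e-06), and SSH1, which encodes a second translocation channel (0.17, FDR 2.34e-06), rose, and SEC11, the catalytic subunit gene of signal peptidase, fell (−0.18, FDR 7.25e-05). None of 6 oligosaccharyltransferase subunit genes was called (median −0.021), whereas with total counts alone 1 of them was.

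Of 4 genes that act on HAC1 mRNA or on Ire1, 2 rose and 1 fell (3 of 4 called, against 49.3% of all genes, median 0.14). TRL1, the gene of the tRNA ligase that joins the HAC1 exons after Ire1 has cut them, had 48.0 to 58.0 CPM in technical replicate 3 (median 54.0) against 42.1 to 48.2 CPM in technical replicate 1 (median 46.6), with a log2 fold change of 0.22 (SE 0.042, FDR 0.000106). The ranges of TRL1 overlapped only at their ends. The phosphatase gene PTC2 rose (0.098, FDR 0.00142) and the phosphatase gene DCR2, whose product acts on Ire1, fell (−0.16, FDR 0.000246).

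Outside the ER, 2 of 13 cytosolic chaperone genes rose and 9 fell (84.6% called, against 49.3% of all genes, median log2 fold change −0.43). HSP26, a small heat shock protein gene, had 94.4 to 210.0 CPM in technical replicate 3 and 402 to 663 CPM in technical replicate 1, a log2 fold change of −1.93 (SE 0.084, FDR 1.42e-13). SSA4, a stress-induced cytosolic HSP70 gene (−1.07), and HSP104, the disaggregase gene (−0.95), also fell. By comparison, the largest change among the 10 ER genes was that of EUG1, at −0.27.

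In the comparison of technical replicates 2 and 1, the counts called in these lists, in the order given above, were 1 of 10, 0 of 18, 2 of 16, 0 of 6, 0 of 4 and 8 of 13, against 4.28% of all genes. Besides SIL1, SSH1 (0.13, FDR 0.00169) and SRP14, another signal recognition particle gene (0.15, FDR 0.00295), were higher in technical replicate 2. Between technical replicates 3 and 2 the counts were 3 of 10, 5 of 18, 4 of 16, 2 of 6, 1 of 4 and 10 of 13, against 38.5% of all genes. These counts depended on the scaling. With DESeq2 size factors they were 4 of 10, 5 of 18, 4 of 16, 2 of 6, 2 of 4 and 11 of 13. With total counts alone they were 3 of 10, 3 of 18, 2 of 16, 0 of 6, 2 of 4 and 9 of 13. Of all genes, 1986 and 1989 were called in these fits. ERJ5, the J-domain protein gene, also fell in this comparison, with 97.9 to 118 CPM in technical replicate 3 and 118 to 141 CPM in technical replicate 2 (log2 fold change −0.22, FDR 1.28e-05). CPR5 (−0.23), MPD1 (−0.21), DFM1 (−0.14), UBC7, which encodes a ubiquitin-conjugating enzyme of ER-associated degradation (−0.17, FDR 0.000269), and SEC11 (−0.14) also fell, while SSM4 (0.15), SRP68 (0.11) and TRL1 (0.18) rose. SPC3, a signal peptidase subunit gene (−0.15, FDR 0.00194), and the oligosaccharyltransferase subunit genes OST1 (−0.11, FDR 0.00327) and SWP1 (−0.071, FDR 0.00546) fell with TMM scaling but were not called with total counts alone (FDR 0.0107, 0.0167 and 0.128). HSP26, SSA4 and HSP104 fell in both comparisons, with log2 fold changes of −0.79, −0.53 and −0.37 between technical replicates 2 and 1 and of −1.14, −0.55 and −0.58 between technical replicates 3 and 2.

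To examine whether pipetting speed changed the levels of these genes, each faster speed was compared with 50 µL/s in the model of speed and biological replicate used by the study. No gene of the 10 was called at 130 µL/s (0 of 10, against 0% of all genes), 210 µL/s (0 of 10, against 0%) or 290 µL/s (0 of 10, against 0.0389%). At an unadjusted p below 0.05, the 10 genes included HAC1 at 130 µL/s, KAR2 at 210 µL/s and KAR2, ERO1 and HAC1 at 290 µL/s, against 1.71%, 2.99% and 10.5% of all genes. DESeq2 and limma-voom also called 0 genes of all those tested at 130 and 210 µL/s.

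KAR2 had the smallest p of the 10 genes at 290 µL/s. Over the 6 libraries of each speed, its CPM was 1361 to 1602 at 50 µL/s (median 1457), 1302 to 1461 at 130 µL/s (median 1404), 1286 to 1451 at 210 µL/s (median 1360) and 1290 to 1365 at 290 µL/s (median 1353). The medians were lower at each higher speed, and the ranges of 290 and 50 µL/s overlapped only between 1361 and 1365 CPM. At 290 µL/s KAR2 was lower than at 50 µL/s in 6 of 6 pairs of the same culture and technical replicate number, as were 5.31% of all genes. Its log2 fold change was −0.12 (95% interval −0.21 to −0.036, FDR 0.313). With technical replicate as a further term it was −0.12 (FDR 0.0257), still not called, while 217 of all genes (4.22%) were called in that fit (and 19, or 0.37%, between the cultures, again without any of the 10). Within technical replicates 3, 2 and 1 the log2 fold change of KAR2 was −0.12, −0.10 and −0.13, and without the library of 50 µL/s B1T3 it was −0.092.

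HAC1 and ERO1 also had intervals below 0 at 290 µL/s. HAC1 had 383 to 455 CPM at 290 µL/s (median 407), against 400.2 to 514 CPM at 50 µL/s (median 451), and was lower in 5 of 6 pairs (log2 fold change −0.12, 95% interval −0.23 to −0.012, FDR 0.416). The difference within technical replicates 3, 2 and 1 was −0.049, −0.11 and −0.20. ERO1 had 203 to 226 CPM at 290 µL/s (median 219), against 198 to 305 CPM at 50 µL/s (median 240.3), and was lower in 5 of 6 pairs (−0.16, 95% interval −0.31 to −0.011, FDR 0.436). In the fit with technical replicate as a further term, HAC1 was at −0.12 (FDR 0.0485) and ERO1 at −0.15 (FDR 0.04). Neither was called in that fit. Within technical replicates 3, 2 and 1, ERO1 differed by −0.31, −0.13 and −0.0018, and without the library of 50 µL/s B1T3 its log2 fold change was −0.083. A test of the difference between technical replicates 3 and 1 gave −0.32 for ERO1 (SE 0.11, FDR 0.254) and 0.20 for LHS1 (SE 0.069, FDR 0.255), and called 0 of the 10 genes and 0% of all genes.

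**Figure D3:**
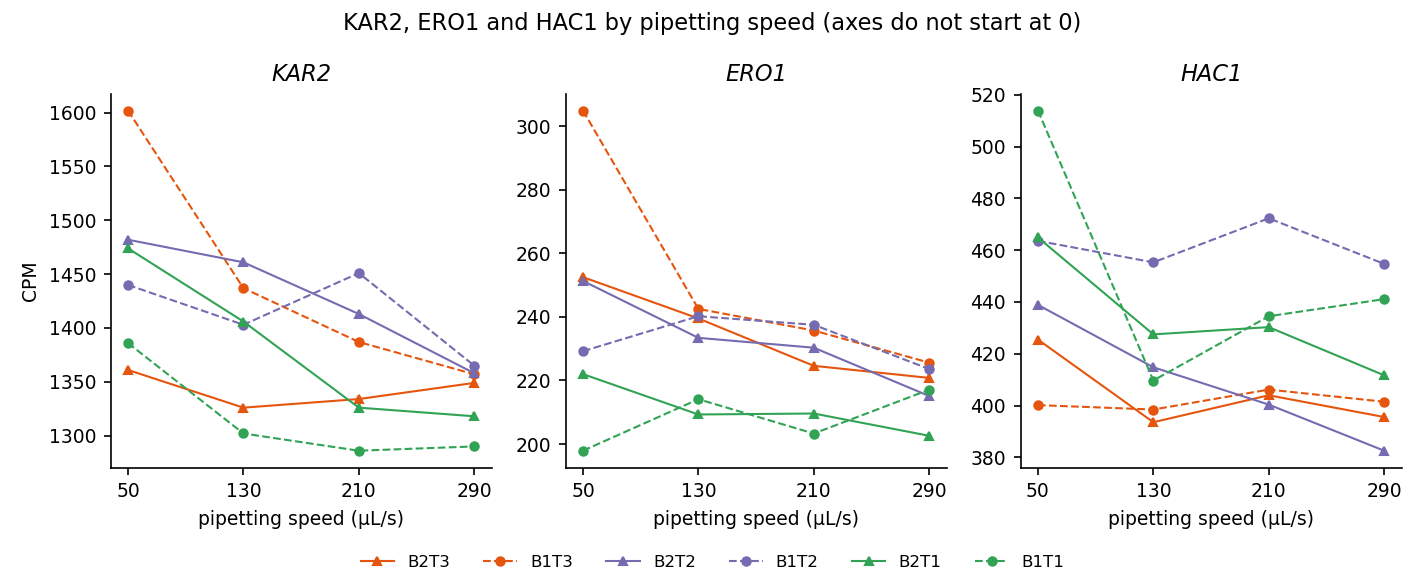
CPM of KAR2, ERO1 and HAC1 (vertical axes, not from 0) against pipetting speed in µL/s, with a line for each culture and technical replicate number (solid for biological replicate 2, dashed for biological replicate 1). KAR2 at 290 µL/s is below its matched library at 50 µL/s in 6 of 6 lines, whereas ERO1 and HAC1 are lower in 5 of 6.

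The other 7 genes had intervals that included 0 at 290 µL/s. Their log2 fold changes were 0.076 for EUG1 (95% interval −0.10 to 0.25), 0.058 for CNE1 (−0.055 to 0.17), 0.054 for IRE1 (−0.014 to 0.12), 0.021 for PDI1 (−0.084 to 0.13), −0.0092 for LHS1 (−0.080 to 0.062), −0.025 for SCJ1 (−0.17 to 0.12) and −0.066 for JEM1 (−0.18 to 0.052). EUG1, with the widest of these intervals, had 149 to 178 CPM at 290 µL/s and 120.1 to 174 CPM at 50 µL/s. In the model of speed and biological replicate, changes up to those limits are therefore not excluded. Technical replicate as a further term gave narrower intervals, which also included 0 for each of these genes. They were −0.0097 to 0.18 for EUG1, −0.12 to 0.070 for SCJ1 and −0.14 to 0.010 for JEM1.

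**Figure D4:**
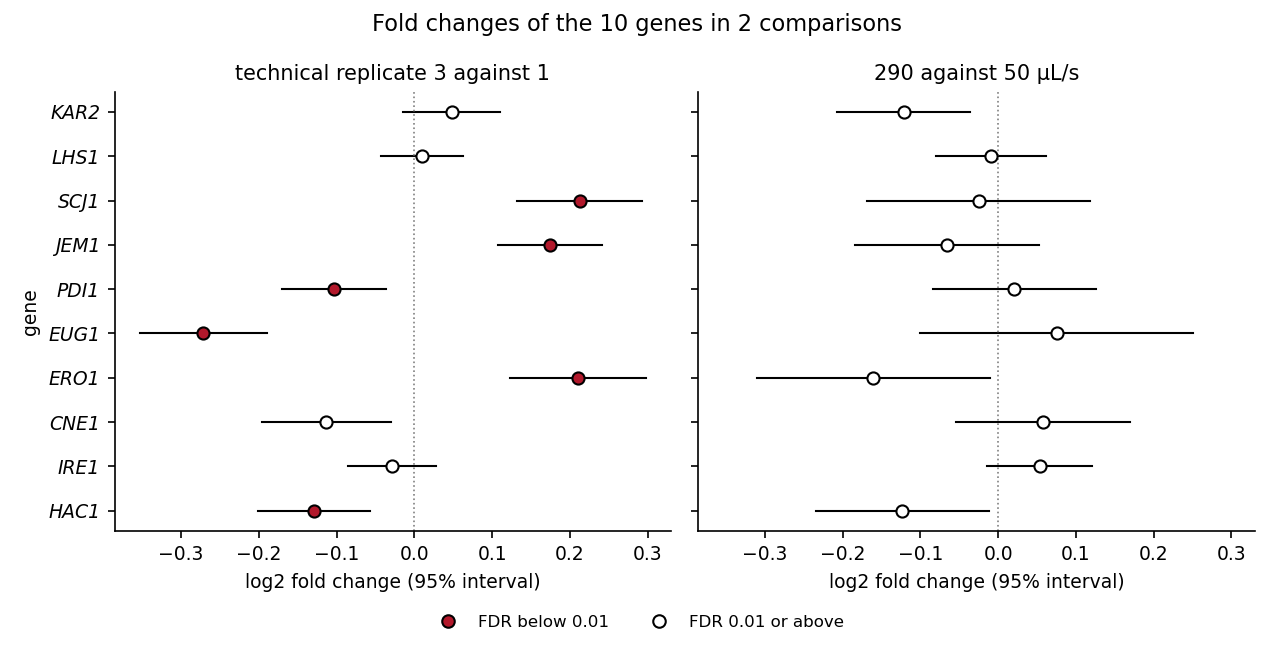
Log2 fold changes (horizontal axis) of the 10 genes with 95% intervals, for technical replicate 3 against 1 on the left and for 290 against 50 µL/s on the right, filled where the FDR was below 0.01. Filled points are seen for 6 genes on the left and for 0 genes on the right.

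At 130 µL/s KAR2 and HAC1 were both lower than at 50 µL/s in 6 of 6 pairs, as were 2.41% of all genes. Their log2 fold changes were −0.069 (95% interval −0.16 to 0.017) and −0.11 (−0.23 to −0.0042). At 210 µL/s the log2 fold changes were −0.093 for KAR2 (5 of 6 pairs lower) and −0.088 for HAC1 (4 of 6 pairs lower). The 3 speed comparisons share the libraries of 50 µL/s and are therefore not independent of each other.

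Between biological replicates 2 and 1, 0 of the 10 genes were called, as were 0% of all genes, while 10.3% of all genes and 2 of the 10 (PDI1 and IRE1) had an unadjusted p below 0.05. DESeq2 called 13 genes and limma-voom 0, none of them among the 10. PDI1 had 1808 to 2171 CPM in biological replicate 2 (median 2039), against 1745 to 2093 CPM in biological replicate 1 (median 1884), and was higher in 10 of 12 pairs (log2 fold change 0.083, SE 0.036, FDR 0.423). IRE1 was lower in 11 of 12 pairs, with 74.0 to 84.8 CPM in biological replicate 2 (median 80.8) and 80.2 to 88.3 CPM in biological replicate 1 (median 83.6), and a log2 fold change of −0.053 (SE 0.023, FDR 0.423). HAC1 was lower in 10 of 12 pairs (−0.074, FDR 0.513). The 2 cultures overlapped for each of these genes, and HAC1 was 1 of 405 genes, of 5142, called in the comparison made within technical replicate 2 alone (−0.17, FDR 0.00711).

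The variation over all 24 libraries was below the median of all genes for some of the 10 genes and above it for others. The coefficient of variation of CPM was smallest for LHS1 (3.73%) and IRE1 (3.94%) and largest for EUG1 (9.71%) and ERO1 (9.65%), beside a median of 8.14% over all genes. Counting error alone would give 0.626% for PDI1, the most deeply counted, with a mean of 25518 counts, and 4.78% for CNE1, the least, with 438 counts. The observed variation was 6.16% for PDI1 and 6.11% for CNE1. Technical replicate took a large share of the variance of log2 CPM for EUG1 (68.8%), JEM1 (60.1%), SCJ1 (57.3%), ERO1 (47.1%) and PDI1 (36.9%), beside a median of 34.7% over all genes. Speed took 36.5% for KAR2, 22% for HAC1, 18.3% for IRE1 and 18.1% for ERO1, beside a median of 8.37%. Biological replicate took 22.8% for PDI1 and 22.6% for IRE1, beside a median of 2.99%.

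Finally, the genes were compared with each other over the 24 libraries, which share cultures, speeds and technical replicate numbers, so that correlations of log2 CPM are given as descriptions. Among the highest were those of PDI1 with EUG1 (r = 0.74, rho = 0.77), SCJ1 with JEM1 (r = 0.725, rho = 0.74) and KAR2 with ERO1 (r = 0.71, rho = 0.59). EUG1 with ERO1 (r = −0.735, rho = −0.62) and SCJ1 with HAC1 (r = −0.67, rho = −0.73) were among the most negative. After removal of the effects of speed, culture and technical replicate number, r was 0.49 for PDI1 with EUG1, 0.39 for SCJ1 with JEM1, 0.55 for KAR2 with ERO1, −0.60 for EUG1 with ERO1 and −0.61 for SCJ1 with HAC1. Without the library of 50 µL/s B1T3, r was 0.68, 0.66, 0.51, −0.59 and −0.67 for the same pairs over 23 libraries. Leaving out the 2 libraries farthest from the median of the gene named first gave 0.64, 0.68, 0.44, −0.56 and −0.66. KAR2 and HAC1 had an r of 0.14, and HAC1 and EUG1 an r of 0.52. After removal of the effects of speed, culture and technical replicate number, these were −0.18 and 0.70. That of HAC1 and EUG1 was then the highest of any pair. KAR2 with SCJ1 went from 0.45 to 0.60.

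**Figure D5:**
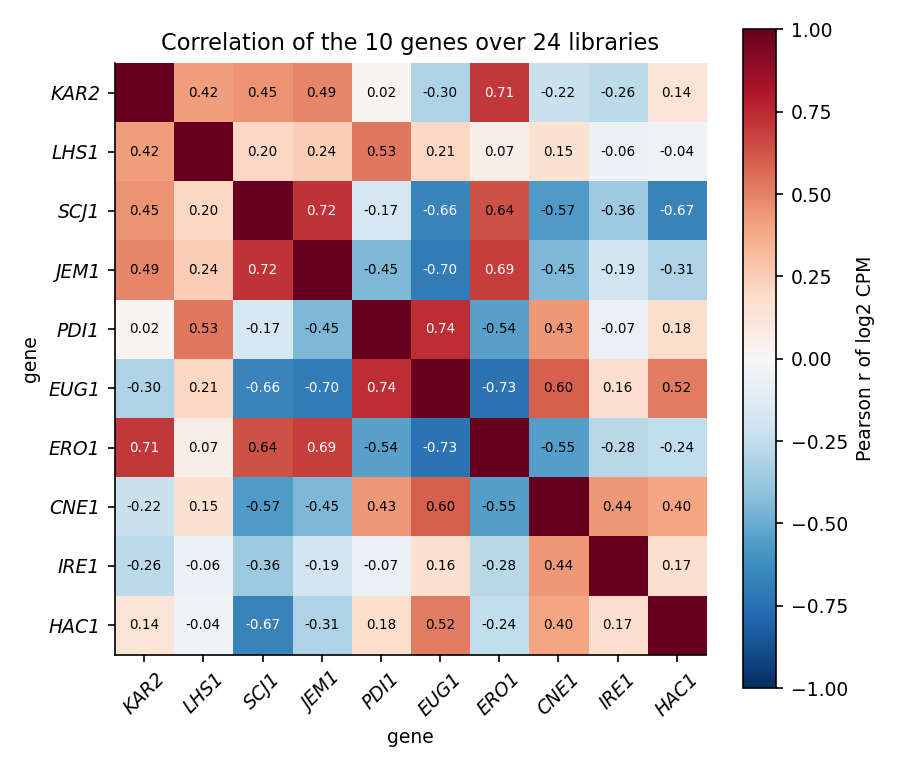
Pearson r of log2 CPM between each pair of the 10 genes over 24 libraries, on a colour scale from blue (negative) to red (positive), with the value in each cell. PDI1 with EUG1 (0.74) and SCJ1 with JEM1 (0.725) are the most positive pairs, whereas ERO1 is positive with KAR2 (0.71) and negative with EUG1 (−0.735).

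The 5 genes outside this group whose log2 CPM was most like that of KAR2 over the 24 libraries were TOS3 (r = 0.83), CIP1 (0.80), BAT1 (0.79), YPS1 (0.76) and LYP1 (0.76). By Spearman's rho, TOS3, BAT1 and YPS1 were again among the first 5, with PSA1 and GTT3 in place of the other 2. Without the library of 50 µL/s B1T3, r was 0.76 for TOS3, 0.76 for CIP1, 0.82 for BAT1, 0.74 for YPS1 and 0.77 for LYP1.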

How the data were processed

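Poly(A) RNA of 24 libraries was sequenced with a strand-specific kit. Per the labels and the study's methods, the authors trimmed reads with fastp 0.23.2, aligned them to a W303 genome with STAR 2.7.10a and quantified genes with RSEM. The deposited tables hold expected counts (estimated counts that need not be whole) and TPM for each gene, with gene length and effective length in bases, which the authors' RSEM run gave. A series-wide table whose 24 columns were named only by tube was not used. Gene names came from the RefSeq annotation of S288C (5151 of 5193 identifiers matched). No sequence is shown, since that reference is of another build than the files.

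Expected counts were rounded, the 51 genes that averaged no more than 1 count were left out, and TMM factors (0.964 to 1.04) were applied. Tests were made in edgeR 4.0.16 (R 4.3.3) with the quasi-likelihood F-test on speed + biological replicate, and with technical replicate added for comparisons of technical replicates, at an FDR of 0.01 over all genes. Intervals are 95%. DESeq2 1.42.0, limma 3.58.1 (voom), other scalings and filters, a fragment length covariate, leaving out each library and within-replicate fits were alternatives. Technical replicate numbers were taken to pair libraries across speeds, because libraries of the same number and culture deviated together in all 36 pairs (r 0.148 to 0.779). Libraries of unlike number or culture were not compared in this way, so that these values alone do not establish the pairing. Whether a number marks an order of sampling or of preparation cannot be told apart. The tests were tried on simulated counts. Where speed was tested, these held no differences between technical replicates, so that a source of spread in the real libraries was missing. The trial therefore does not show how the speed tests behave on these data. All 10 genes were named, with up to 3 of each other list by smallest adjusted p in any comparison that called some of it, and the 5 genes most like KAR2. The 10 genes and the lists were chosen with earlier results of these data known.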

Additional observations from a re-analysis of the deposited data

Results flagged for a closer look

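Among 70 groups of 6 or 8 libraries (10 genes by 4 speeds and 3 technical replicate numbers), 4 held a library whose gap to its nearest neighbour was large for the range of its group, which chance gives in about 1 in 20 groups. In technical replicate 3, the library of 50 µL/s B1T3 had 1602 CPM of KAR2, with the next highest at 1437, and 304.9 CPM of ERO1, with the next highest at 252.5. In the same technical replicate, the library of 50 µL/s B2T3 had 425.5 CPM of HAC1, with the next highest at 406.2. At 290 µL/s, the library B2T2 had 80.27 CPM of IRE1, below the next lowest at 83.93, in a group whose highest value was 85.06.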

How the results depend on the processing

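Of 2580 values of the 10 genes recomputed under alternatives, 0 called values turned their direction, while 150 uncalled values changed sign. Judged by the threshold of each setting, 21 were no longer past it and 30 passed it newly. These 30 include unchanged values of the main fit that passed only because an alternative set the threshold at an FDR of 0.05. They were CNE1 between technical replicates 3 and 1, ERO1 between 2 and 1, and SCJ1, JEM1, CNE1 and HAC1 between 3 and 2. At an FDR of 0.05, 1 of the 10 genes (ERO1) was called between technical replicates 2 and 1, and 6 between technical replicates 3 and 2. Of the 10, only ERO1 was called between technical replicates 2 and 1 when just those 16 libraries were fitted (beside 223 of all genes). The same held within biological replicate 2 (beside 406 of all genes). Within biological replicate 1, 3 of the 10 were called between technical replicates 3 and 1, beside 1435 of all genes. Within technical replicate 2, 1 (HAC1) was called between biological replicates 2 and 1, beside 405 of all genes. DESeq2, added after seeing the data, called 1 (KAR2) in the difference between cultures, beside 108 of all genes. Leaving out 1 library gave 0 to 1 genes between technical replicates 2 and 1, 5 to 7 between 3 and 1, and 2 to 4 between 3 and 2. The cause was not tested.

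The replicate block (technical replicate number as a term) left 0 of the 10 genes called at 130, 210 and 290 µL/s and between cultures. At 290 µL/s it put KAR2 at −0.12 (FDR 0.0257), ERO1 at −0.15 (FDR 0.04) and HAC1 at −0.12 (FDR 0.0485). It raised the calls over all genes to 217, against 2, at 290 µL/s and to 19, against 0, between cultures, and changed no other call. Over all genes, DESeq2 called 11 at 290 µL/s and 349, against 220, between technical replicates 2 and 1. The order of levels was the same with CPM per kb, which is close to TPM by construction, and 3 of the 5 genes most like KAR2 were shared with Spearman's rho. The planned searches of promoter motifs and protein features were not run, for want of sequences of the files' build. The changes are mostly below 0.3 on the log2 scale, CNE1 has the fewest counts, and only 2 cultures were grown.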
